A study of Mus musculus with 8 samples.

Results

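The cluster of miR-191 and miR-425 is a pair of neighbouring miRNA genes, Mir191 and Mir425, on mouse chromosome 9. Its mature products mmu-miR-191-5p, mmu-miR-425-5p and mmu-miR-425-3p make up 3 of the 1881 mouse miRNAs on the array, and all 3 were found there by name. They were selected on their membership of this locus, with miR-191-5p as a widely used serum reference miRNA, and chosen by their total signals, probe signals and detection calls at 7 Gy against 0 Gy. Their differences between the groups are therefore given as a description, with no test. The sera came from male C57BL/6NJcl mice that were 8 weeks old at irradiation. The 4 mice of the 7 Gy group received whole body X-rays at 1.0 Gy/min and their sera were taken after 72 h, and the 4 mice of the 0 Gy group were not irradiated. The time of collection of the 0 Gy sera is not given in the sources used here. From each serum, 30 ng of RNA was labelled with Cy3 and hybridised to 1 array, and the labels do not say more about how far the 4 samples of a group were independent.

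A miRNA gene is transcribed into a hairpin that Drosha and Dicer trim to a short duplex with a 5p and a 3p arm, and the arm that is loaded into an Argonaute protein silences mRNAs that pair with its seed. miRNAs also circulate in serum, in vesicles or bound to protein, and reach it from blood cells, endothelium and solid organs. The products of Mir191 and Mir425 are widely expressed, in blood cells among others, and miR-191-5p is often used to normalise quantitative PCR because its level varies little between many tissues. In serum, fewer cells that release a miRNA and less release per cell cannot be told apart.

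The mature sequences are shown because the 2 arms of a hairpin, and the 2 genes of the cluster, share no seed. They are RefSeq sequences in the GRCm38.p6 build, written 5′ to 3′ with the seed (bases 2 to 8) in capitals, and the miR-191-3p arm, which is not a member, stands beside them for its values further on.
miR-425-5p: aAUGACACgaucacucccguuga
miR-425-3p: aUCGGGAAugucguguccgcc
miR-191-5p: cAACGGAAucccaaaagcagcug
miR-191-3p: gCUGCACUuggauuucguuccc

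These lie on the plus strand at chr9:108568789-108568811 for miR-425-5p, chr9:108568830-108568850 for miR-425-3p, chr9:108568325-108568347 for miR-191-5p and chr9:108568367-108568388 for miR-191-3p. Their GC content is 47.8%, 61.9%, 52.2% and 54.5% in the same order. The hairpins follow with both arms in capitals, to show from where each arm is taken.
Mir191: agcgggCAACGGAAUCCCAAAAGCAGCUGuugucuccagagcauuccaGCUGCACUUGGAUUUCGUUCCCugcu
Mir425: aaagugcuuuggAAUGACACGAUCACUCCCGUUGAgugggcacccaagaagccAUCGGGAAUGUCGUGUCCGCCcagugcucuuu

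Mir191 spans 74 bases at chr9:108568319-108568392 and Mir425 spans 85 bases at chr9:108568777-108568861, with 384 bases between them, and both lie inside the span of the gene Dalrd3 in this annotation. Among the 1608 array miRNAs with a mature RefSeq sequence, the only other one with the seed of a member was miR-489-3p, which has the seed of miR-425-5p. Its gene is on chromosome 6, and it was detected on 0 of the 8 arrays.
miR-489-3p: aAUGACACcacauauauggcagc

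The members differed most in whether they were measured at all. A miRNA was called detected on an array when at least 1 of its probes gave a background-subtracted signal over 3 times its own error, a rule that matched all 1881 calls on each of the 8 arrays. miR-425-5p was detected on 4 of 4 arrays at 7 Gy and 4 of 4 at 0 Gy. miR-425-3p was detected on 0 of 4 arrays at 7 Gy and 3 of 4 at 0 Gy, and miR-191-5p on 0 of 4 at 7 Gy and 1 of 4 at 0 Gy. Over all mouse miRNAs, 311 (16.5%) were detected on all 8 arrays, 72 (3.83%) on exactly 3, 90 (4.78%) on exactly 1 and 1077 (57.3%) on none. The reference miRNA of the cluster therefore stood among the rarely detected miRNAs and the 5p arm of its neighbour among the constantly detected ones.

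The arrays themselves were uneven. The number of detected miRNAs ranged between 378 and 687 at 7 Gy and between 531 and 603 at 0 Gy, and the factors that gave every array the same 90th percentile of the mouse miRNA signals ranged between 0.379 and 4.63 at 7 Gy and between 0.390 and 1.06 at 0 Gy. A synthetic RNA added before labelling read between 1.95 and 3.35 at 7 Gy and between 2.73 and 3.68 at 0 Gy on the log10 scale, and it was out of the range accepted by the software on 7 Gy replicates 1, 3 and 4. A synthetic oligonucleotide added before hybridization was in range on all 8 arrays, and no spot was saturated. All arrays lay on 1 slide. The 7 Gy sera filled its columns 3 and 4, the 0 Gy sera its columns 1 and 2, and column and dose cannot be told apart.

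miR-425-5p, the better measured member, gave total signals of 71.3, 242, 17.6 and 56.8 intensity units on 7 Gy replicates 1 to 4, against 1168, 482, 272 and 351 on 0 Gy replicates 1 to 4. Every 7 Gy array lay below every 0 Gy array before scaling, although 7 Gy replicate 2 came close to 0 Gy replicate 3. Of the 311 miRNAs detected on all 8 arrays, 11 (3.54%) were lower at 7 Gy without overlap before scaling, miR-425-5p among them, and 0 were higher. The mean was 96.8 ± 99.2 at 7 Gy and 568 ± 409 at 0 Gy (SD, n = 4 each), and the difference in log2 signal, 7 Gy minus 0 Gy, was −2.90 with a standard error of 0.90. The largest signal was 66.5 times the smallest over the 8 arrays, 13.8 times within the 7 Gy group and 4.30 times within the 0 Gy group.

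After scaling to the common 90th percentile, the total signal of miR-425-5p was 309, 91.5, 81.4 and 42.9 on the 7 Gy arrays, against 456, 218, 289 and 326 on the 0 Gy arrays. The groups now overlapped through 7 Gy replicate 1, whose scaling factor was 4.33, while the other 7 Gy arrays stayed below all 0 Gy arrays. The mean was 131 ± 120 at 7 Gy and 322 ± 99.6 at 0 Gy (SD, n = 4 each), and the log2 difference was −1.64 with a standard error of 0.63. With scaled signals under 100 set to 100, the lower limit of the study's methods read as a floor, 3 of the 4 arrays at 7 Gy and 0 of the 4 at 0 Gy lay at the floor. The mean was then 152 ± 104 at 7 Gy and 322 ± 99.6 at 0 Gy, and the log2 difference was −1.23 with a standard error of 0.46.

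**Figure D1:**
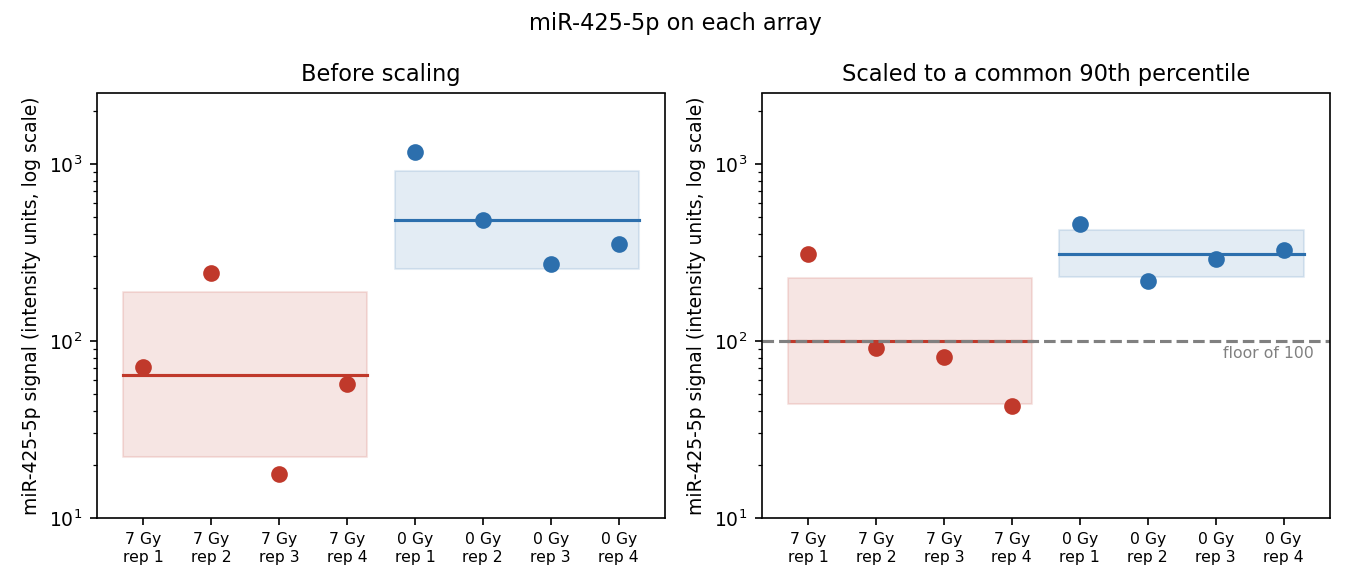
Total signal of miR-425-5p on each array in intensity units on a log axis, before scaling (left) and after scaling to a common 90th percentile (right). Points are arrays, lines are geometric means and bands are ±1 SD of the log2 signals (n = 4 each); before scaling all 7 Gy arrays lie below all 0 Gy arrays, and after scaling 7 Gy replicate 1, at 309, lies among the 0 Gy arrays while the other 3 fall below the dashed floor of 100.

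Both slide rows held both groups, with replicates 1 and 2 of each group in row 1 and replicates 3 and 4 in row 2. The floored log2 difference of miR-425-5p was −0.84 with a standard error of 0.97 within row 1. It was −1.62 with a standard error of 0.09 within row 2, an error made small by the floor, at which both 7 Gy arrays of that row lie. With no floor, a setting chosen after seeing the data, the difference was −0.91 with a standard error of 1.03 within row 1 and −2.38 with a standard error of 0.47 within row 2. On these scaled signals the difference was smaller than its error in row 1, where 7 Gy replicate 1 lies, which is high only after scaling. Before scaling the difference was −2.52 with a standard error of 1.09 within row 1. Within row 2 it was −3.29 with a standard error of 0.87.

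The signal of miR-425-5p did not depend on a single probe. It was read by 2 probes with 15 spots each, and all 30 spots were well above background on each of the 8 arrays. The coefficient of variation among the spots of a probe within an array was between 2.46% and 10.5%, far less than the spread between arrays. Before scaling, the log2 difference was −2.77 with a standard error of 0.89 for the first probe and −2.64 with a standard error of 0.78 for the second, and no array of 1 group overlapped with the other. After scaling it was −1.51 with a standard error of 0.73 and −1.38 with a standard error of 0.70, both with overlap. The ratio of the first probe's signal to the second's was 1.25, 1.40, 1.14 and 1.13 on the 7 Gy arrays, against 1.58, 1.38, 1.16 and 1.29 on the 0 Gy arrays. This ratio overlapped between the groups, and both probes put the 8 arrays in the same order.

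The labelling spike-in moved with miR-425-5p across the arrays. It read 2.31, 3.35, 1.95 and 1.97 on the log10 scale on the 7 Gy arrays, against 3.68, 3.45, 2.73 and 3.37 on the 0 Gy arrays. The array with the lowest spike-in, 7 Gy replicate 3, had the lowest unscaled miR-425-5p, and the array with the highest, 0 Gy replicate 1, had the highest. As a share of the spike-in signal, the unscaled miR-425-5p signal was 34.5%, 10.7%, 19.9% and 60.3% on the 7 Gy arrays, against 24.4%, 17.1%, 50.8% and 15.1% on the 0 Gy arrays. These shares overlapped widely, with both the highest and the lowest of the 8 at 7 Gy. Scaled to this spike-in, with the same floor, the log2 difference was 0.22 with a standard error of 0.60, so that its direction depended on the scaling. With only the arrays whose spike-in was in range, which leaves 7 Gy replicate 2 alone against the 4 arrays at 0 Gy, it was −1.64 on the 90th percentile scale, with a standard error of 0.49 that takes the lone array to vary like the others. With the labelling spike-in as a covariate on all 8 arrays, the floored log2 difference was −1.20 with a standard error of 0.70. Without the covariate it was −1.23 with a standard error of 0.46. The part of labelling in the lower miR-425-5p signal was not tested beyond these settings.

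**Figure D2:**
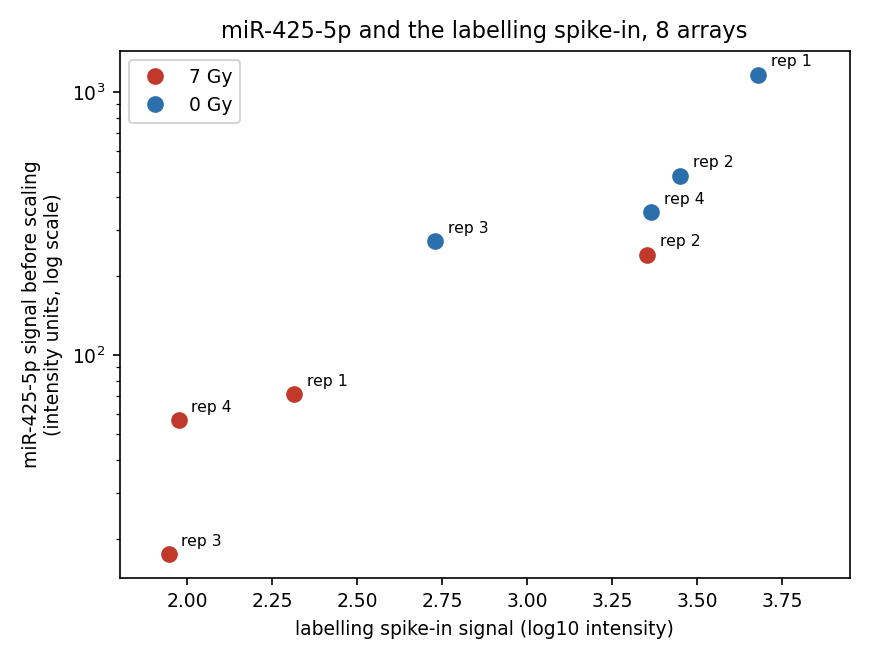
Total signal of miR-425-5p before scaling (vertical, intensity units, log axis) against the labelling spike-in signal (horizontal, log10 intensity) for the 4 arrays at 7 Gy and the 4 at 0 Gy. Arrays with a low spike-in have a low miR-425-5p signal, from 7 Gy replicate 3 at 1.95 and 17.6 up to 0 Gy replicate 1 at 3.68 and 1168.

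Under the other ways of scaling that were tried the miR-425-5p signal stayed lower at 7 Gy. The floored log2 difference was −1.65 when the arrays were scaled to the 75th percentile of those miRNAs that every array detected, and −1.51 after quantile normalization. It was −1.64 with the hybridization spike-in, which the labelling reaction does not touch, and −1.95 with no scaling.

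**Figure D3:**
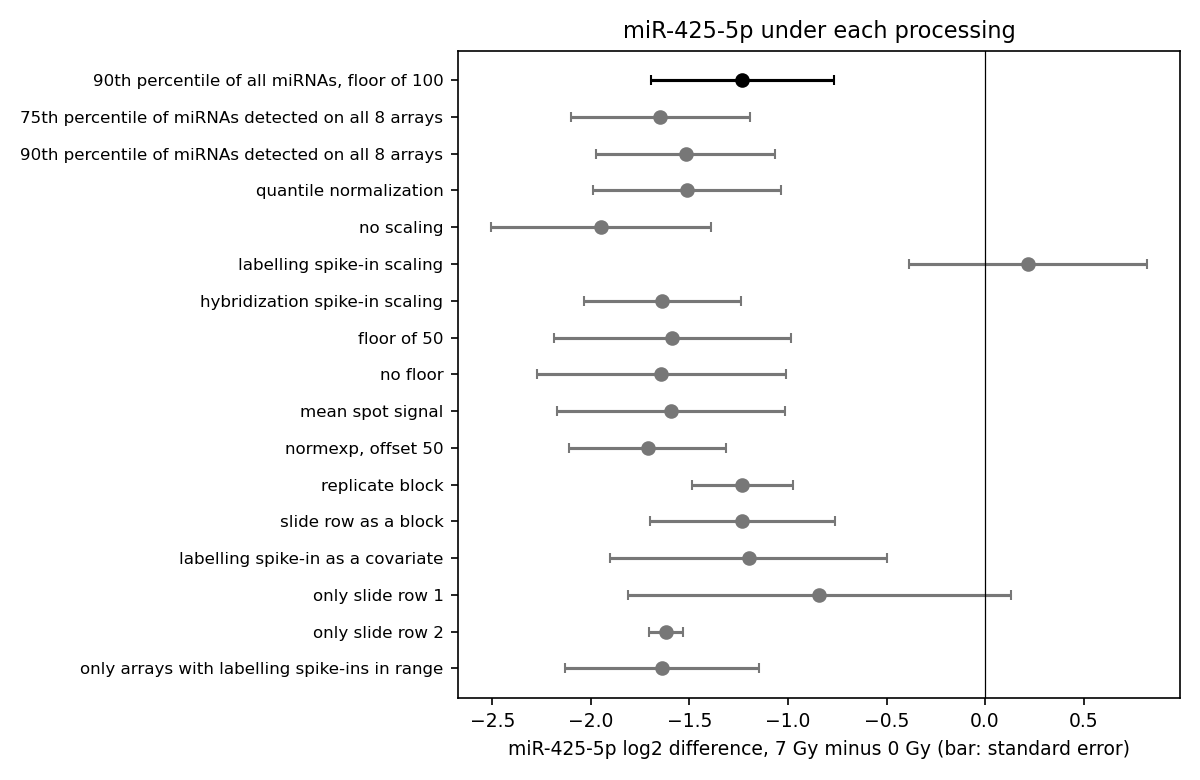
Log2 difference of miR-425-5p (horizontal, 7 Gy minus 0 Gy, bars are standard errors) under each processing (vertical), with the 90th percentile and the floor of 100 in black at the top. The differences lie between −1.95 and −0.84, except that with labelling spike-in scaling, which is 0.22.

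In a comparison of 208 miRNAs with limma, the members were represented by miR-425-5p alone, since miR-425-3p and miR-191-5p lay at the floor on all 8 arrays. limma called 4 miRNAs higher at 7 Gy (1.92%) and 4 lower (1.92%) at an adjusted p under 0.05, and 0 of these were members. At an unadjusted p under 0.05 limma put 46 higher (22.1%) and 16 lower (7.69%), and the methods' t-test with 1.5-fold put 34 higher (16.3%) and 14 lower (6.73%). miR-425-5p was among the lower ones in both. It was chosen on this same contrast, so its place there is a description and not a test of its difference. The groups did not overlap, on floored values, for 14 miRNAs higher at 7 Gy (6.73%) and 11 lower (5.29%), and miR-425-5p was not among them. The median log2 difference over the 208 miRNAs was 0.17, against −1.23 for miR-425-5p.

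miR-425-3p, the other arm of the Mir425 hairpin, was at the limit of detection. It was read by 3 probes with 10 spots each, and the highest ratio of a probe's signal to its error was 1.42, 1.81, 1.39 and 1.60 on the 7 Gy arrays, against 3.36, 2.61, 3.45 and 3.19 on the 0 Gy arrays. The limit of 3 was passed on 0 Gy replicates 1, 3 and 4, each time by the same 1 probe of the 3, and 0 Gy replicate 2 and all 7 Gy arrays fell below it. The reported totals were 2.09, 1.86 and 1.58 intensity units on the 3 arrays that passed. In all, 1 spot of 30 on 0 Gy replicate 3 and 0 spots on the other arrays were called well above background.

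Since the threshold hides values below it, the signals of all 3 probes of miR-425-3p were also summed. The sums were 1.14, 1.38, 1.08 and 1.85 on the 7 Gy arrays, against 2.72, 2.13, 3.45 and 2.97 on the 0 Gy arrays. The unscaled sums were lower on every 7 Gy array than on any 0 Gy array, although most of the summed probes were under the detection limit. Such sums were lower at 7 Gy without overlap for 43 of the 1881 mouse miRNAs (2.29%) and higher for 35 (1.86%). Scaled, they were 4.95, 0.522, 5.0 and 1.40 on the 7 Gy arrays, against 1.06, 0.961, 3.67 and 2.76 on the 0 Gy arrays. The groups then overlapped and the order of the means turned, with 2.97 ± 2.35 at 7 Gy and 2.11 ± 1.32 at 0 Gy (SD, n = 4 each). No fold is given for miR-425-3p, because on the scaled values the lowest fold that the detection limits allow was below 1.

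miR-191-5p was below the detection limit on nearly all arrays, on which it could not serve as a reference. It was read by 4 probes with 30 spots in all, of which 0 were well above background on any of the 8 arrays. The highest ratio of a probe's signal to its error was 0.656, 0.846, 0.680 and 0.238 on the 7 Gy arrays, against 3.46, 2.47, 0.928 and 1.27 on the 0 Gy arrays. The limit of 3 was passed by 1 of the 4 probes on 0 Gy replicate 1 alone, where the total was 1.51 intensity units. On the 7 Gy arrays the smallest signal that a probe would have needed was 0.669, 1.01, 0.646 and 1.04 intensity units, against 1.28, 1.09, 1.06 and 0.988 on the 0 Gy arrays, so that a lower level was not detectable.

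The summed signals of the 4 miR-191-5p probes were 0.240, 0.221, 0.363 and −0.291 on the 7 Gy arrays, against 2.86, 1.59, 0.761 and 0.446 on the 0 Gy arrays. The unscaled 7 Gy values did not overlap with the 0 Gy values, as for 2.29% of all mouse miRNAs, but with 0 spots well above background this is an order of values near background, and 7 Gy replicate 4 was below its background. Scaled, the sums were 1.04, 0.0837, 1.68 and −0.220 on the 7 Gy arrays, against 1.12, 0.716, 0.810 and 0.415 on the 0 Gy arrays. The groups overlapped, with means of 0.647 ± 0.874 at 7 Gy and 0.764 ± 0.288 at 0 Gy (SD, n = 4 each). No fold is given for miR-191-5p either, for the same reason as for miR-425-3p.

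**Figure D4:**
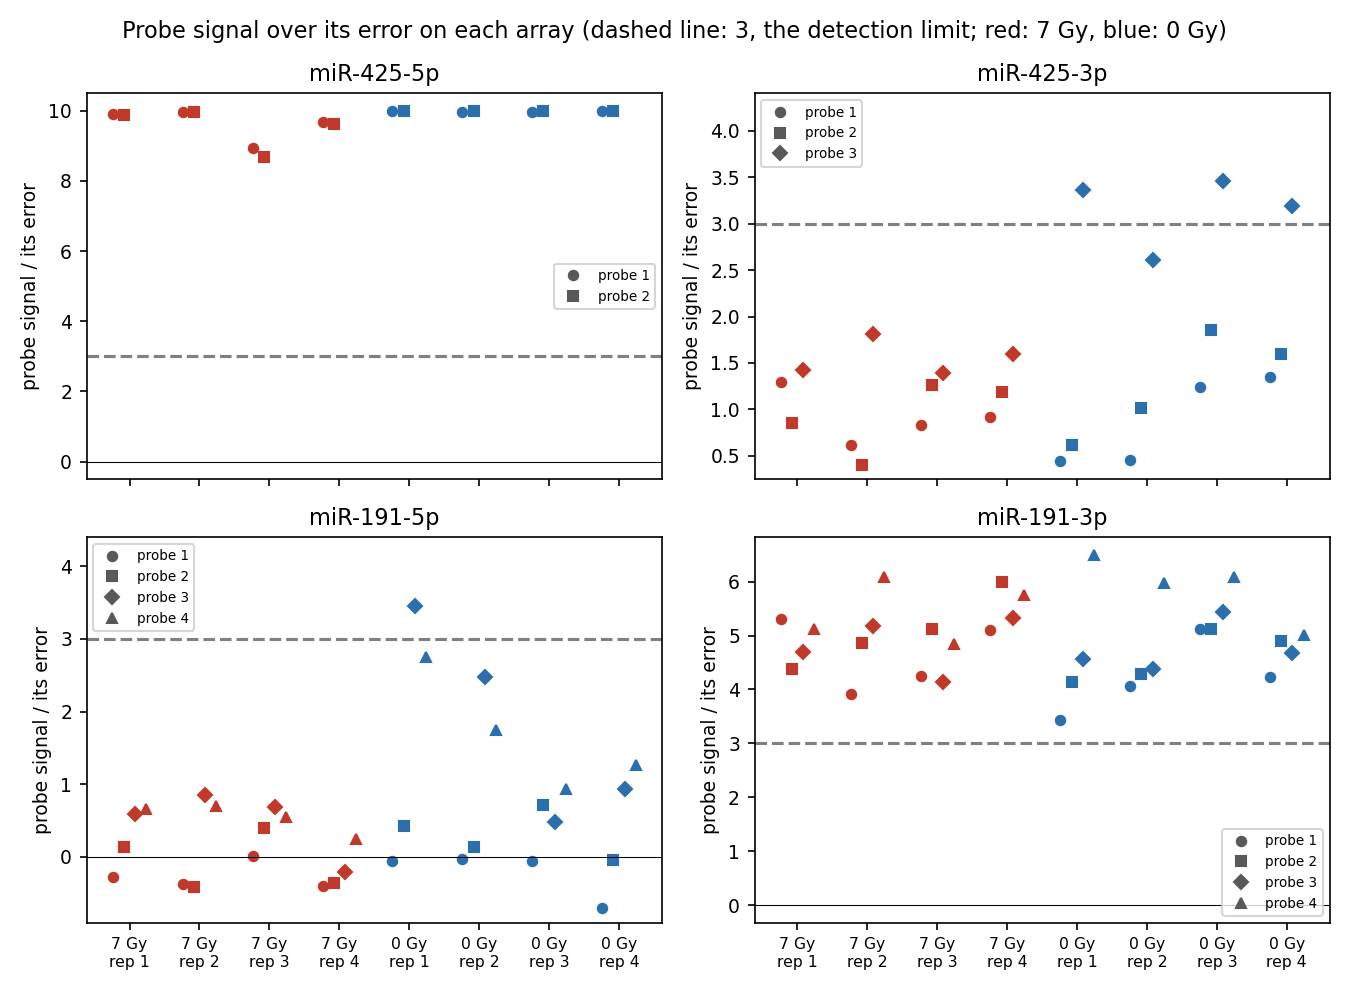
Signal of each probe divided by its error (vertical, no unit) on each array (horizontal, 7 Gy in red, 0 Gy in blue) for miR-425-5p, miR-425-3p, miR-191-5p and miR-191-3p, with the detection limit of 3 dashed. All probes of miR-425-5p and miR-191-3p lie above the limit on all 8 arrays, 1 probe of miR-425-3p passes it on 3 arrays at 0 Gy, and 1 probe of miR-191-5p passes it on 1 array at 0 Gy.

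The other arm of the Mir191 hairpin, miR-191-3p, was detected where miR-191-5p was not, at a low signal. Of its 30 spots, 17, 23, 15 and 28 were well above background on the 7 Gy arrays, against 15, 13, 26 and 23 on the 0 Gy arrays. On every array some of its spots were thus not well above background. miR-191-3p was detected on all 8 arrays, with 5.34, 8.40, 4.79 and 9.96 intensity units on the 7 Gy arrays, against 9.47, 8.15, 9.84 and 7.48 on the 0 Gy arrays. These unscaled signals overlapped between the groups and varied little, the largest being 2.08 times the smallest, and the log2 difference was −0.35 with a standard error of 0.27. Scaled, miR-191-3p gave 23.1, 3.18, 22.2 and 7.52 on the 7 Gy arrays, against 3.69, 3.68, 10.5 and 6.95 on the 0 Gy arrays. The high scaled values stood on 7 Gy replicates 1 and 3, the arrays with the largest scaling factors, and the log2 difference was 0.91 with a standard error of 0.78. Its scaled signals lay under the floor of 100 on all 8 arrays. Signals of different miRNAs on an array are not compared here as levels, because probes differ in how strongly they respond.

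A ratio of 2 miRNAs within an array is the same with and without the scaling factor. It removes an effect of the array only where both signals follow that effect to the same degree. Unscaled, miR-191-3p spanned 2.08 times over the 8 arrays and miR-425-5p 66.5 times, so such effects, labelling among them, may remain in the ratio. The ratio of miR-425-5p to miR-191-3p was 13.3, 28.8, 3.67 and 5.71 on the 7 Gy arrays, against 123, 59.2, 27.6 and 47.0 on the 0 Gy arrays. Only 7 Gy replicate 2 and 0 Gy replicate 3 overlapped, by a small margin. The difference in the log2 ratio, 7 Gy minus 0 Gy, was −2.55 with a standard error of 0.80, given as a description. The ratio by itself does not say which of the 2 miRNAs differs. Before scaling the log2 difference was −2.90 for miR-425-5p and −0.35 for miR-191-3p, and after scaling it was −1.64 and 0.91.

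As miR-191-5p could not be used, the spread of miR-425-5p was set beside that of 13 other miRNAs in use as serum references. Their number detected was 6, 13, 6 and 7 on the 7 Gy arrays, against 12, 12, 13 and 12 on the 0 Gy arrays, and 5 were detected on all 8 arrays. Within the 0 Gy group the SD of the log2 scaled signal was 0.44 for miR-425-5p, and 11 of the 12 reference miRNAs that could be compared had a higher one, between 0.504 for miR-30e-5p and 3.69 for miR-16-5p. The exception was miR-484 with an SD of 0.365. Of the 445 miRNAs detected on all 4 arrays at 0 Gy, 52 (11.7%) had a lower SD than miR-425-5p, and the median was 0.753. Over all 8 arrays the SD of miR-425-5p was 1.21, higher than that of miR-423-5p (0.764), miR-30e-5p (1.04) and miR-484 (1.12) and lower than that of miR-320-3p (1.33) and miR-24-3p (1.54). miR-425-5p was thus among the steadier miRNAs of the non-irradiated sera but not the steadiest over both groups.

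Of the 13 reference miRNAs, 12 were tested and limma called 0 at an adjusted p under 0.05, with 0 higher and 1 lower at an unadjusted p under 0.05 by limma and likewise by the methods' t-test. On floored values their median log2 difference was −0.83, against 0.17 over all 208 tested miRNAs, and 8 of the 12 lay below 0. miR-16-5p, which is abundant in red cells, was not detected on 7 Gy replicates 1, 3 and 4. These are the arrays with the labelling spike-in out of range.

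Fewer miRNAs of blood cells were detected on 7 Gy replicates 1, 3 and 4 than on the other arrays. Over all 1881 mouse miRNAs, 7 Gy replicates 1 and 3 also had the fewest detected, 379 and 378. Replicate 4 had 567 and replicate 2 had 687, against 531 to 603 at 0 Gy. Of the 6 red cell miRNAs, 2, 5, 2 and 2 were detected on the 7 Gy arrays and 6, 6, 5 and 5 on the 0 Gy arrays, and their summed unscaled signal ranged between 2941 and 48317 at 7 Gy and between 17737 and 210586 at 0 Gy. Of the 8 white cell miRNAs, 2, 7, 2 and 3 were detected on the 7 Gy arrays and 8, 8, 7 and 8 on the 0 Gy arrays, with summed signals of 55.2 to 5336 at 7 Gy and 821 to 16012 at 0 Gy. miR-451a, which is abundant in red cells, was detected on all 8 arrays. It ranged between 7.11 and 39270 intensity units at 7 Gy and between 2595 and 172768 at 0 Gy. The 5 red cell miRNAs tested were all below 0 with a median log2 difference of −1.34, as were the 7 white cell miRNAs tested with a median of −0.62. The median over all 208 tested was 0.17, so more of those lay above 0 than below. The differences rest on floored values, so that arrays with scaled signals under 100 are tied and a small difference can rest on few arrays. miR-223-3p, for example, was under the floor on 7 Gy replicates 1, 3 and 4 and on 0 Gy replicates 3 and 4. Some of the differences in these 2 lists were smaller than their standard errors from limma, which draws on the spread of all tested miRNAs. Examples are miR-144-3p at −0.005 (standard error 0.08), miR-142a-5p at −0.05 (0.09) and miR-486a-5p at −0.46 (0.84). limma called 0 in either list, with 1 lower in each at an unadjusted p under 0.05.

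The lists of other sources split the 7 Gy arrays in the same way. Of the 5 platelet and endothelial miRNAs matched on the array, 2, 5, 2 and 2 were detected on the 7 Gy arrays and 5, 5, 4 and 5 on the 0 Gy arrays, with summed signals of 127 to 4183 at 7 Gy and 922 to 5853 at 0 Gy and a median log2 difference of −0.21 over 4 tested. Of the 4 hepatocyte miRNAs, 0, 4, 0 and 0 were detected on the 7 Gy arrays and 3 on each of the 0 Gy arrays, with summed signals of 0 to 2805 at 7 Gy and 22.8 to 1457 at 0 Gy and a median of −0.15 over 2 tested. limma called 0 in these lists, with 1 and 0 lower at an unadjusted p under 0.05. The part of these cells in the signals of the cluster was not tested. miR-16-5p stands in both the reference and the red cell list, and miR-24-3p in both the reference and the platelet and endothelial list.

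The miRNAs whose pattern over the 8 arrays was most like that of miR-425-5p were sought among the other 310 detected on all 8 arrays, by Pearson's r of the log2 scaled signals. They were miR-210-3p (r = 0.860), which hypoxia induces, miR-1941-5p (r = 0.834), miR-222-3p (r = 0.811), which represses the receptor Kit and the cell cycle inhibitor p27, miR-324-3p (r = 0.809) and miR-186-5p (r = 0.803). The median r over the 310 was −0.416. The arrays share the group difference, the scaling and the labelling, and on deviations from the group means r was 0.676 for miR-210-3p, 0.657 for miR-1941-5p, 0.529 for miR-222-3p, 0.522 for miR-324-3p and 0.502 for miR-186-5p, against a median of −0.0514. The nearest of them, miR-210-3p, ranged between 4.35 and 160 unscaled intensity units at 7 Gy and between 146 and 446 at 0 Gy. miR-222-3p ranged between 32.2 and 314 at 7 Gy and between 736 and 1101 at 0 Gy, without overlap. miR-191-3p, from the neighbouring hairpin, had r = −0.0768 with miR-425-5p on the scaled signals, 0.646 on the unscaled ones and 0.379 on the deviations.

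For the members that were rarely detected no such neighbours can be singled out. miR-425-3p, ranked over the 8 arrays with its undetected values tied, reached a Spearman's rho of 0.894 at most among 803 miRNAs, and 5 miRNAs reached at least 0.851. miR-191-5p, detected on 1 array, had the same ranks as 14 other miRNAs that were detected on that array alone.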

How the data were processed

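Serum RNA was measured on 1-colour Agilent mouse miRNA arrays. The deposited intensity values are scanner output of Agilent Feature Extraction, with no normalization between arrays. For the authors it subtracted the background and gave an undetected miRNA 0.1. The total of a detected miRNA matched the sum of those of its probes that were over 3 times their error. The version is 11.5 in the submitters' processing notes, and the methods name an earlier one. Depth does not apply, and the number of arrays, 4 per group, limits the precision.

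The signals of each array were multiplied by a factor that made the 90th percentiles over mouse miRNAs equal, raised to 100 where lower, and put on the log2 scale. The methods name a lower limit of 100 without saying whether low values were replaced or removed. miRNAs detected on at least 3 arrays and above the floor on at least 1 entered limma 3.58.1 (lmFit and eBayes) in R 4.3.3, 208 in all. Benjamini-Hochberg adjustment was used, with no block. The procedure was also run on simulated data, which were drawn without a floor and so do not cover values tied at the floor. Standard errors of single miRNAs are those of 2 groups of arrays, except that those of the red and white cell examples are limma's moderated ones.

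The members, the lists (reference and cell type miRNAs) and the alternatives were chosen with earlier results of these data known. The miRNAs named are the members, miR-191-3p, those sharing a seed, the 5 with the highest r, and members of the lists. Replicate numbers were not taken as pairs: the deviations of samples of the same number correlated at −0.34, 0.43, 0.55 and 0.42. Python 3.11.15 and matplotlib 3.10.9 served for the figures. Sequences were copied from RefSeq tables.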

Additional observations from a re-analysis of the deposited data

Results flagged for a closer look

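Among the 7 Gy arrays, miR-425-5p on replicate 1 stood far from the others. Its gap to the nearest other array, divided by the range of the group, was 1 on log2 scaled signals with the floor of 100, above Dixon's critical value for 4 samples, because the other 3 arrays lie at the floor. With no floor the value was 0.617 at 7 Gy and 0.452 at 0 Gy, and before scaling 0.466 at 7 Gy and 0.607 at 0 Gy, all under the critical value. Chance alone marks about 1 in 20 groups of values without ties. That rate does not apply to the flagged value, which is fixed at 1 when 3 of 4 arrays are tied at the floor.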

How the results depend on the processing

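The log2 difference of miR-425-5p (−1.23) was −1.95 with no scaling and 0.22 with labelling spike-in scaling, where its direction turned. It lay between −1.64, without 7 Gy replicate 1, and −1.05, without 0 Gy replicate 1, when 1 array was left out, and within its spread under the 14 other settings. The difference of miR-425-5p minus that of miR-191-5p (−1.23, which restates miR-425-5p, since miR-191-5p is constant at the floor) was −1.95 with no scaling, 0.22 with labelling spike-in scaling, −2.36 with no floor and −2.02 with normexp at an offset of 50, and −1.64 to −1.05 with 1 array left out. miR-191-5p, miR-425-3p and miR-191-3p differ by 0 through the floor alone, and gave 0.72, 0.37 and 0.91 with no floor and 0.30, 0.31 and 0.35 with normexp. With no floor an undetected value was replaced by the lowest detected signal of its array before scaling, so that 0.72, 0.37 and −2.36 rest on these substitutes and are no measurements of miR-191-5p or miR-425-3p.

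The calls among all tested miRNAs (4 higher and 4 lower at 7 Gy) were not stable. They were 7 and 11 with the 75th percentile of miRNAs detected on all 8 arrays, 6 and 1 with their 90th, 2 and 4 with quantile normalization, 2 and 3 with a floor of 50, 3 and 8 with no floor, 6 and 10 with mean spot signals, 2 and 12 with normexp, 18 and 8 with the slide row as a block, 8 and 0 with only those arrays whose labelling spike-in was in range, 61 and 14 with array weights, 34 and 14 by the methods' t-test with 1.5-fold and 1 and 1 by that test after adjustment. limma called 0 and 0 with labelling spike-in scaling (26 and 3 at an unadjusted p under 0.05), no scaling (1 and 17), hybridization spike-in scaling (10 and 11) and the labelling spike-in as a covariate (12 and 21). With the replicate block it also called 0 and 0 (47 and 18 unadjusted), against 46 and 16 unadjusted with no block, and the standard error of miR-425-5p was 0.25 with the block and 0.46 without it, while its difference cannot move in this balanced layout. Not every sample matched its own number best (7 Gy samples matched 0 Gy numbers 3, 1, 3 and 3). With 1 array left out the calls ranged between 0 and 56 higher and between 1 and 14 lower, most without 7 Gy replicate 2 (56 and 14) and fewest without 0 Gy replicate 1 or 2 (0 and 1 each), and leaving out any of the 8 arrays moved at least 1 of both counts by over 1.5 times. The cause of these changes was not tested. Scaling to miR-191-5p and to the 75th percentile over all mouse miRNAs was not run, since both lie at the undetected value on at least 1 array. The members other than miR-425-5p are limited by signal over background, and no array was identical to another.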
